A study of Mus musculus with 8 samples.

Results

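Hdac3-deficient DP2 thymocytes were compared with wild-type DP2 thymocytes, gene by gene. DP2 cells are CD4+CD8+ (double-positive, DP) mouse thymocytes with high surface CD5 and intermediate TCRβ, a surface phenotype of cells in which the T cell receptor (TCR) is already engaged by selecting ligands. Levels are given in FPKM, fragment counts scaled to transcript length and library size, and every gene with at least 1 FPKM in either group was kept, which gave 12210 of the 23278 genes listed. Of these, 10674 carried a test in the authors' deposited table. The study as a whole holds 8 libraries from C57BL/6 mice, 2 in each of 4 groups: wild type (WT, Hdac3+/+) and Hdac3KO (Hdac3F/F with LCK-Cre), each as DP2 and as the earlier DP1 population with low CD5 and low TCRβ. The 4 DP2 libraries are the ones described here. All groups were flow-sorted as GFP+ cells and sequenced from ribosome-depleted total RNA made into pools. The Lck promoter drives Cre in T lineage cells, so that deletion starts in thymocytes. Whether the WT animals carry Cre, what GFP marks, the age of the animals and the animals behind each pool are not given in the sources used here. The deposited p-values therefore refer to these libraries, and the spread between them may be technical. How the authors' test estimated that spread is not given in the sources used here.

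HDAC3 is the enzyme within the corepressor complexes of the NCoR type, which it needs for its activity and which sequence-specific repressors and nuclear receptors bring to chromatin. Double-positive thymocytes rearrange the TCRα locus, and those whose receptor binds self peptide on MHC weakly are positively selected. Selection switches on immediate early genes of the EGR and NR4A families, raises CD5 and CD69, shuts down recombination and prepares the cell for survival as a CD4 or CD8 T cell.

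Hdac3 itself had 29.7 FPKM in WT DP2 and 15.4 FPKM in Hdac3KO DP2, which is 51.9% of the WT level. Its log2 change was -0.95 ± 0.28 (SE worked back from the deposited p) with a deposited q of 0.0131. The value covers the whole transcript, and which exons the floxed allele loses is not given in the sources used here. The sorted cells carried double-positive markers in both groups: Cd8a was at 469 and 641 FPKM, and Dntt, the terminal transferase, at 810.2 and 1145 FPKM in WT and Hdac3KO. Ptcra, the pre-TCR chain, which is also among the early double-negative markers below, was at 10.99 and 16.4 FPKM. Cd5, whose protein was used for the sort, was at 274 FPKM in WT and 232 FPKM in Hdac3KO (deposited q 0.612). The 2 groups also differed in sex-linked RNA. Xist, the RNA that coats the inactive X, stood at 0.243 FPKM in WT and 139 FPKM in Hdac3KO, whereas the Y-linked genes Ddx3y, Kdm5d and Uty were at 156, 34.6 and 62.6 FPKM in WT and at 0.693, 0.322 and 0 FPKM in Hdac3KO. Sex and genotype therefore cannot be told apart in this comparison. Without X- and Y-linked genes, 672 genes were higher and 440 lower, against 687 and 461 with them. Each gene has 1 deposited FPKM per group, so a spread between libraries cannot be shown beside it, nor whether the libraries of the 2 groups overlap. The depth of the libraries is unknown.

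At a deposited q of 0.05 or less, 1148 genes differed between Hdac3KO and WT DP2 cells, 10.8% of those tested. Of these 687 were higher in Hdac3KO (6.44%) and 461 were lower (4.32%). The lower genes moved further: the median size of the log2 change was 1.43 among them and 1.01 among the higher genes, and at least a 2-fold change was reached by 354 lower and 345 higher genes above 0 in both groups. The change ran with the GC content of the transcripts. Cut into 8 equal bins by GC, the 5837 genes that reached 10 FPKM in each group showed a trend: the median log2 change climbed from -0.17 in the bin centred on 39.5% GC to 0.30 in the bin centred on 57.9% GC. The lowest bin held 22 higher and 45 lower genes, and the highest bin 103 higher and 16 lower. Called higher genes had a median GC of 52.7%, called lower genes 47% and all tested genes 49.7%. With this trend removed by a smooth curve, 395 genes were higher (3.75%) and 578 lower (5.49%). The larger share also turned from higher to lower under a shift of all genes alike: the median tested gene stood at 0.10 on the log2 scale, and centring on the median of genes that reached 10 FPKM, 0.12, gave 469 higher and 613 lower genes. A call that kept its direction and threshold with the GC trend removed is referred to below as GC-robust: 784 calls, 68.3% of all, were, 372 of them higher (3.49%) and 412 lower (3.86%). These include 7 genes at 0 in 1 group, which kept their deposited p. Called genes of unknown GC content could not be retested and are counted as not GC-robust.

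**Figure D1:**
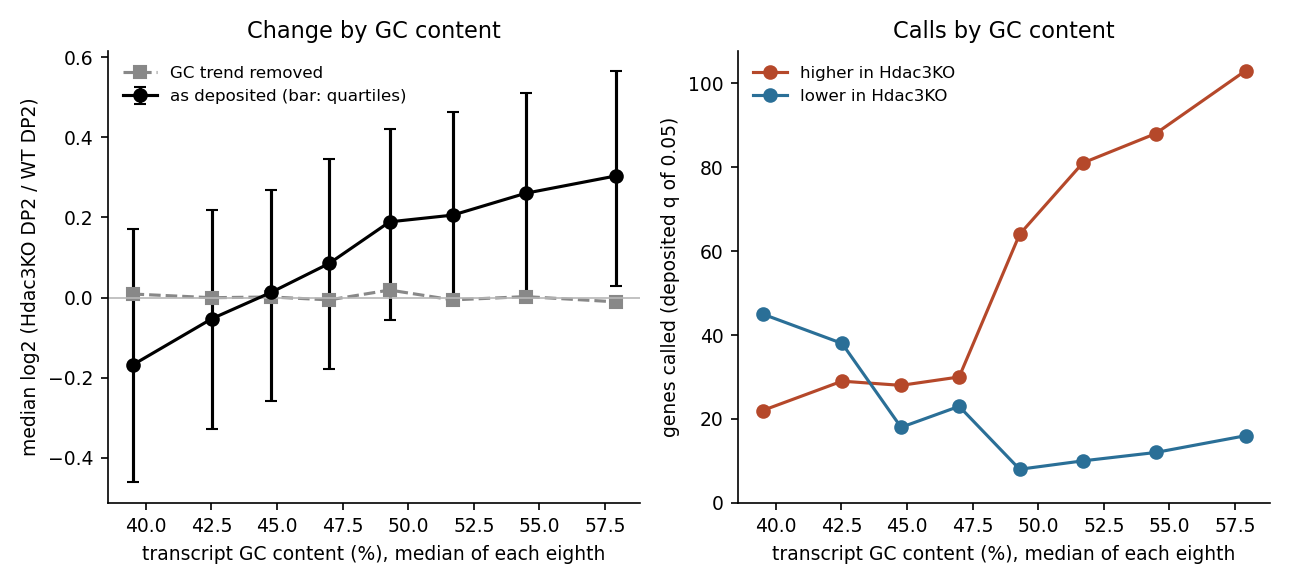
Left, median log2 change (Hdac3KO over WT DP2) against transcript GC content for 8 equal bins of genes that reached 10 FPKM in each group; black, deposited FPKM with bars from the lower to the upper quartile of genes, grey, after the trend was removed. Right, genes called higher (red) or lower (blue) in each bin at a deposited q of 0.05 or less. The black medians climb from -0.17 to 0.30, and the highest bin holds 103 higher and 16 lower genes.

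GC-robust calls were ranked by their log2 change with the GC trend removed, and the changes printed are those before removal. Genes with a value of 0 or below 5 FPKM in both groups were left out. So were small RNAs, joined entries, unnamed loci and symbols turned into dates. Beyond the sex-linked genes, the 3 largest increases were in transcripts under 1 FPKM in WT DP2 cells. Tmprss4, a membrane serine protease gene (chromosome 9, 45172725 to 45249985, mm10), was at 0.459 FPKM in WT and 11.6 FPKM in Hdac3KO, a log2 change of 4.66 ± 1.15 (deposited q 0.00134, the smallest in the comparison). Il18r1, a chain of the interleukin 18 receptor (chromosome 1, 40465551 to 40500854), was at 0.744 and 12.5 FPKM, and H2-T3, a non-classical MHC class I gene, at 0.787 and 13.1 FPKM. Both lay about as far up, at log2 changes of 4.07 ± 1.005 and 4.05 ± 1.07. Spsb1, a substrate adaptor of a ubiquitin ligase (chromosome 4, 149896283 to 149955006), was already present in WT at 4.50 FPKM and reached 52.3 FPKM, a log2 change of 3.54 ± 0.87. Itgam, the integrin chain CD11b, was at 1.60 and 15.7 FPKM. The others of the 12 largest increases by this ranking were C85492, Gpr55, Tuba8, Agpat9, Ankrd6 and Ankrd55, with log2 changes between 2.76 and 3.13. Of these Ankrd6 had the highest level, 102 FPKM in Hdac3KO against 14.9 FPKM in WT. The deposited p stops at 5e-05, which 397 called genes shared, so with respect to p alone the SE of those genes are upper bounds. The normal p of the deposited statistic gave fewer higher genes, as listed in the last section. An SE taken from that statistic would thus be larger for some genes.

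The largest decreases, ranked in the same way, included genes of the TCR-induced, CD4 lineage and maturation lists described below and a few abundant transcripts outside them. Folr4, the folate receptor family gene also called Izumo1r that marks some CD4 T cells, was at 10.2 FPKM in WT and 0.476 FPKM in Hdac3KO, a log2 change of -4.43 ± 1.24 (deposited q 0.00666). Pdcd1, the inhibitory receptor PD-1 (chromosome 1, 94038304 to 94052553), was at 20.7 and 1.32 FPKM, and Il7r, the interleukin 7 receptor (chromosome 15, 9506158 to 9529876), at 10.2 and 0.653 FPKM. Their log2 changes were -3.97 ± 0.98 and -3.96 ± 1.21. The highest WT levels in this group belonged to the zinc finger gene Zfp248 (chromosome 6, 118427318 to 118455506), at 249 against 17.6 FPKM, and to Hhex, a homeobox repressor of early haematopoietic cells (chromosome 19, 37434840 to 37440731), at 221 against 21.3 FPKM. Both fell by more than 3 on the log2 scale, at -3.82 ± 0.94 and -3.37 ± 0.83. Kcnj14, Prkg2, Boc, Rhbg and Cldn10 completed the list with log2 changes between -3.93 and -3.18, from WT levels of 7.14 to 23.9 FPKM. In bulk RNA of this kind fewer cells expressing a gene and less RNA per cell cannot be told apart.

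**Figure D2:**
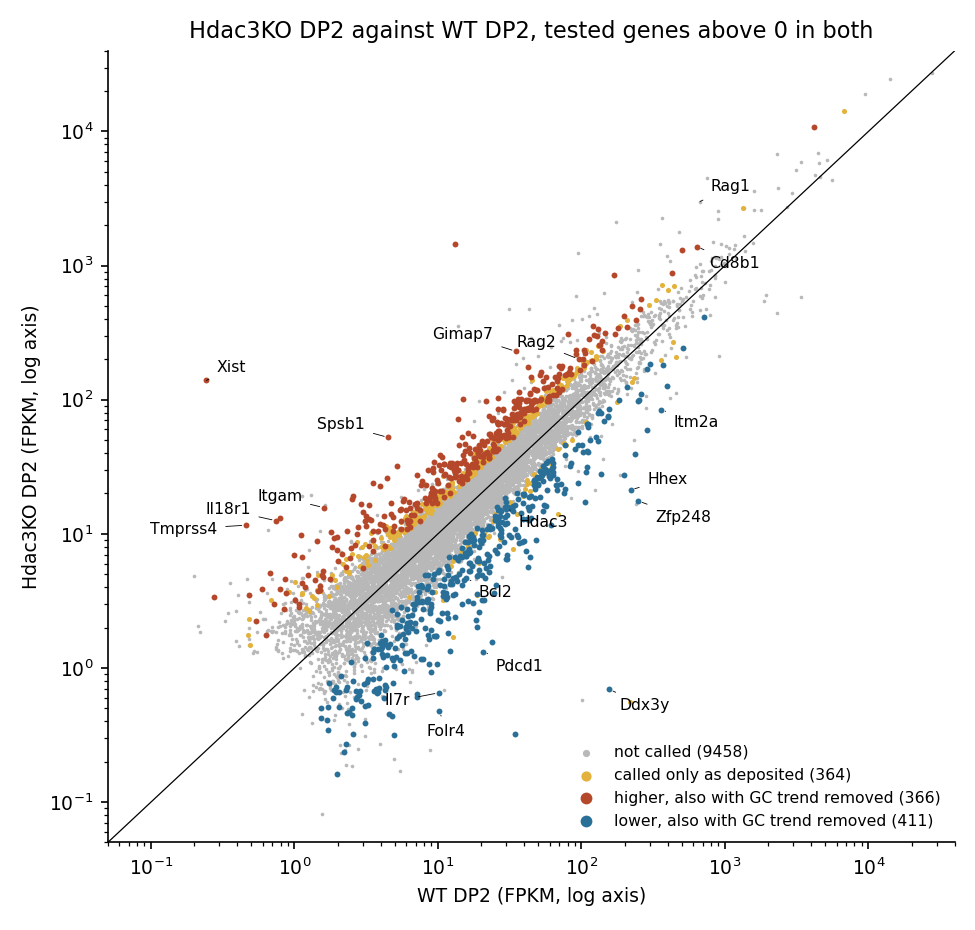
Level in WT DP2 (horizontal) and Hdac3KO DP2 (vertical) for tested genes above 0 in both groups, in FPKM on log axes; the line marks equal levels. Red and blue points are the GC-robust calls (366 higher, 411 lower), and grey points the 9458 not called. Yellow points are the 364 called at the deposited q but not with the GC trend removed, including genes of unknown GC content.

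Genes that TCR signalling induces in thymocytes were lower in Hdac3KO DP2 cells more often than higher. Of 33 tested members of this list, 13 were lower and 3 higher, against backgrounds of 4.32% and 6.44%, and all 16 calls were GC-robust. The median log2 change of the list was -0.62, compared with 0.08 over all genes; such medians cover genes with at least 1 FPKM in either group. Immediate early transcription factors made up a large share of the lower members. Nr4a3 was at 21.3 FPKM in WT and 4.66 FPKM in Hdac3KO (log2 -2.19 ± 0.54, deposited q 0.00134), Egr2 at 19.3 and 5.36 FPKM, Egr1 at 60.2 and 26.3 FPKM, and Nr4a1 at 63.1 and 31.3 FPKM. The fall thus ranged from -2.19 for Nr4a3 to -1.01 for Nr4a1 on the log2 scale. Nab2, the EGR corepressor and target, was at 67.4 and 25.6 FPKM, and Fos, a subunit of AP-1, at 4.83 and 0.766 FPKM. Egr3, at 6.54 and 3.71 FPKM, and Nr4a2, at 1.32 and 0.388 FPKM, did not pass (deposited q 0.249 and 0.0995).

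Receptors and later factors of the same programme were lower as well. Itm2a, an X-linked membrane protein gene of selected thymocytes, was at 360.2 FPKM in WT and 84.0 FPKM in Hdac3KO, a log2 change of -2.10 ± 0.52 (deposited q 0.00134). Tnfrsf9, the costimulatory receptor 4-1BB, was at 3.84 and 0.660 FPKM. The E protein inhibitors Id2 and Id3 were at 23.1 and 39.0 FPKM in WT and at 5.72 and 19.9 FPKM in Hdac3KO. Ikzf2, which encodes Helios, was at 94.8 and 24.0 FPKM, and Tox, which CD4 T cell development requires, at 84.3 and 33.8 FPKM. Other members missed the threshold. Cd69, the activation marker, was at 156 FPKM in WT and 113 FPKM in Hdac3KO (deposited q 0.224), and Gata3 at 42.3 and 31.0 FPKM (0.231). Bcl2l11, which encodes the death factor BIM, was at 32.9 and 35.1 FPKM (0.867), Cd6 at 115 and 112 FPKM (0.958) and Dusp2 at 30.6 and 31.2 FPKM (0.966). The 3 higher members were Ccr7, a homing receptor, at 3.80 FPKM in WT and 10.52 FPKM in Hdac3KO, the ERK phosphatase gene Dusp5 at 41.1 and 99.8 FPKM, and the retinoic acid receptor gene Rara at 13.2 and 29.0 FPKM. Rara moved from a log2 change of 1.13 to 0.80 with the GC trend removed and kept its call (adjusted q 0.0450, normal test on the corrected change).

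The stage tables put these levels beside those of DP1. They share their libraries with the DP2 genotype comparison and were normalized separately, so the values are a description. In the authors' deposited table of the WT stages, 23 of 33 tested TCR-induced genes were higher in DP2 than in DP1 (background 5.55%), and in that of the Hdac3KO stages 17 of 29 (background 1.78%). Nr4a1 went from 7.58 to 59.8 FPKM in WT and from 3.56 to 28.4 FPKM in Hdac3KO, a log2 change of 2.98 and 2.99. Itm2a went from 22.0 to 350.4 FPKM in WT and from 6.40 to 76.4 FPKM in Hdac3KO. Pdcd1 went from 2.63 to 19.8 FPKM in WT and from 0.528 to 1.19 FPKM in Hdac3KO. Its deposited q in Hdac3KO was 1, a value that genes without a test also carry, so no result is drawn from it.

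Genes that characterise the double-positive stage went the other way and were higher more often than lower. Of 31 tested members, 14 were higher and 4 lower (6.44% and 4.32% over all tested genes), 11 and 3 of them GC-robust. The median log2 change was 0.58. Rag2, a subunit of the V(D)J recombinase (chromosome 2, 101560780 to 101632528), was at 95.9 FPKM in WT and 201 FPKM in Hdac3KO, a log2 change of 1.06 ± 0.26 (deposited q 0.00134). Its partner Rag1 had the largest difference of the list, 671 against 3006 FPKM, but the authors' test gave it a deposited q of 0.328, with an SE of 1.33 on a log2 change of 2.16. Bcl6, a repressor that itself recruits corepressors, was at 48.8 and 118 FPKM, the transcription factor gene Ets2 at 120.1 and 357 FPKM, and Themis, a TCR signalling adaptor that selection requires, at 428 and 887 FPKM.

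The coreceptor genes were at different distances. Cd8b1, the CD8β chain, was at 639 FPKM in WT and 1383 FPKM in Hdac3KO, a log2 change of 1.11 ± 0.27 (deposited q 0.00134). Cd8a, the CD8α chain, did not pass (deposited q 0.349). Cd4 was at 208 and 392 FPKM, a log2 change of 0.92 ± 0.29 (deposited q 0.0183) that became 0.70 with the GC trend removed (adjusted q 0.109). Further higher members were Slc16a5, Plxnd1, Elovl6, Spo11, Rmnd5a, Arl5c and Arpp21, with log2 changes between 0.78 and 1.59, and Arpp21 lost its call with the GC trend removed. The 4 lower members were Glipr2, Tdrd5, Chdh and the cystine transporter gene Slc7a11. Tdrd5 was at 42.4 and 15.9 FPKM, and Slc7a11, at 6.32 and 3.36 FPKM, lost its call with the GC trend removed. In the stage tables, a count of 13 of 30 tested double-positive genes was lower in DP2 than in DP1 in WT (background 16.8%) and 3 of 30 in Hdac3KO (background 4.65%). Rag2 went from 181 to 93.2 FPKM in WT and from 211 to 182 FPKM in Hdac3KO, and Cd4 from 409 to 198 FPKM and from 377 to 356 FPKM.

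**Figure D3:**
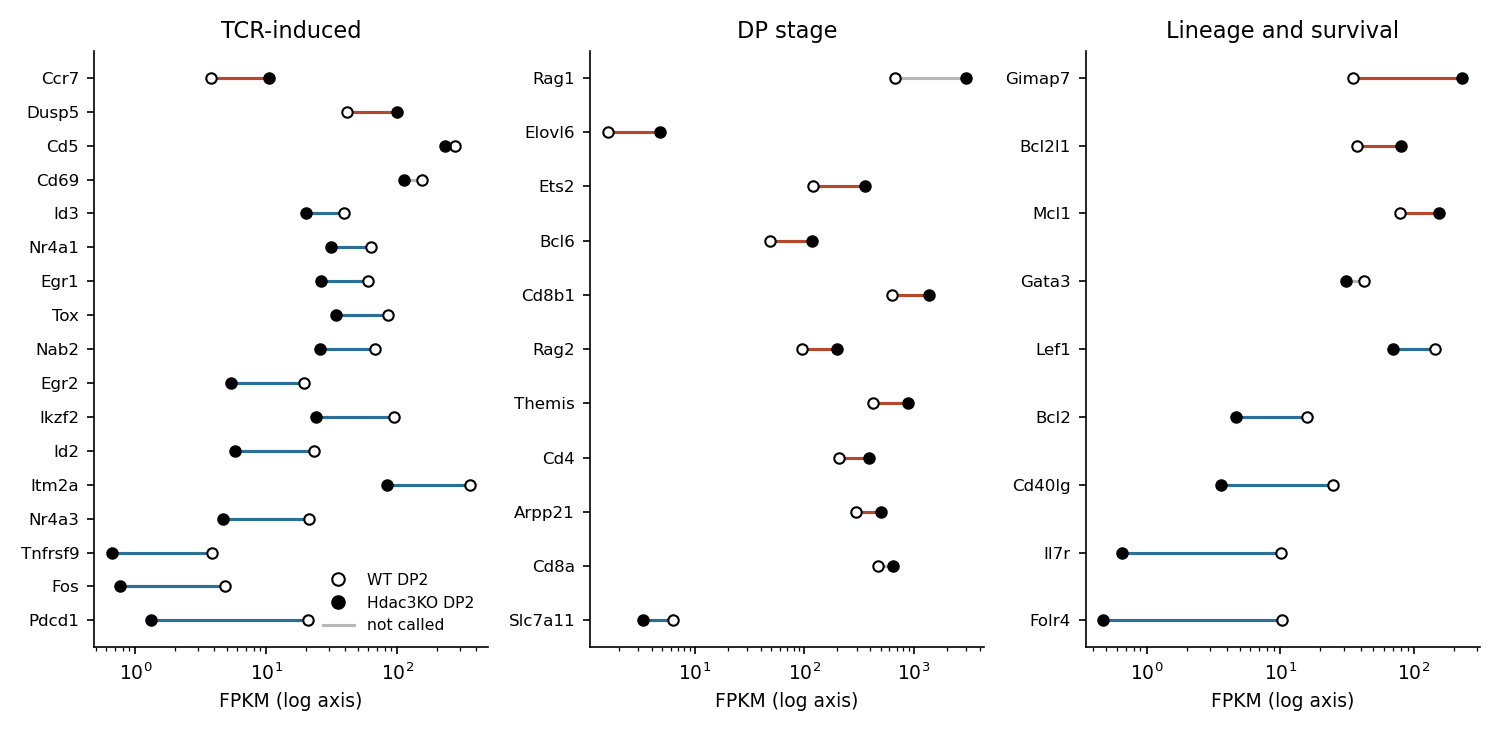
Level in WT DP2 (open circles) and Hdac3KO DP2 (filled circles), in FPKM on log axes, for genes of 3 groups; red lines mark genes called higher and blue lines genes called lower at a deposited q of 0.05 or less, grey lines genes not called. Pdcd1 lies at 20.7 and 1.32 FPKM at one end of the first panel, and Rag1, at 671 and 3006 FPKM, was not called. The genes shown are a selection that holds called members more often than others. Of all 33 tested TCR-induced genes 16 were called and 17 were not. Of all 31 tested double-positive stage genes 18 were called and 13 were not.

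The genes of CD4 and CD8 fate and of post-selection maturation split. Of 12 tested CD4 lineage genes, 4 were lower and 1 higher, Cd4 itself (4.32% and 6.44% over all tested genes). The lower calls, which were GC-robust, were Folr4, Cd40lg, Tox and Lef1. Cd40lg, the X-linked gene of the helper ligand CD40L, was at 24.7 FPKM in WT and 3.60 FPKM in Hdac3KO, a log2 change of -2.78 ± 0.71 (deposited q 0.00245). Lef1, a partner of TCF1 in CD4 fate, was at 144 and 69.8 FPKM. Zbtb7b, the master regulator ThPOK, was near the minimum at 1.08 and 0.379 FPKM and was not tested. Of 8 tested CD8 lineage genes 2 were higher, Cd8b1 and the perforin gene Prf1 (2.17 and 5.94 FPKM, not GC-robust). Runx3, the CD8 lineage factor, was at 4.50 and 2.57 FPKM (deposited q 0.119), and passed as lower with the GC trend removed (adjusted q 0.0241).

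Maturation after selection was represented by 25 tested genes, with 10 higher and 3 lower calls (6.44% and 4.32% over all tested genes). Of these calls 8 and 3 were GC-robust. The Gimap GTPase genes, clustered on chromosome 6 and active in lymphocyte survival, led the higher ones. Gimap7 (48718620 to 48724636) was at 35.0 FPKM in WT and 229 FPKM in Hdac3KO, a log2 change of 2.71 ± 0.67 (deposited q 0.00134). Gimap4 was at 21.8 and 97.7 FPKM and Gimap3 at 10.6 and 37.2 FPKM. Klf3, a repressor of the Kruppel-like family, was at 33.7 and 98.6 FPKM, Cd52, a surface glycopeptide gene, at 199 and 419.8 FPKM, and Foxo1, a transcription factor of quiescence and Il7r expression, at 6.44 and 12.5 FPKM. The 3 lower members were Il7r, Cd44 and Ms4a6b: the adhesion receptor gene Cd44 was at 4.37 and 0.721 FPKM, and Ms4a6b at 42.9 and 12.7 FPKM. Foxo1 and Il7r thus differed in opposite directions.

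Single survival genes of the BCL2 family differed in each direction. Bcl2 (chromosome 1, 106538178 to 106714290), the anti-apoptotic gene that maturing thymocytes switch on, was at 15.8 FPKM in WT and 4.65 FPKM in Hdac3KO, a log2 change of -1.76 ± 0.43 (deposited q 0.00134). Bcl2l1, whose product BCL-XL protects double-positive cells, was at 37.9 and 81.0 FPKM, and Mcl1 at 79.0 and 155 FPKM. Both rose by about 1 on the log2 scale, 1.09 ± 0.27 and 0.97 ± 0.24, and were GC-robust. The death gene Bbc3, which encodes PUMA, was at 6.86 and 14.4 FPKM and lost its call with the GC trend removed. In all, 3 of 20 tested members were higher and 1 lower, against 6.44% and 4.32% over all tested genes. These counts rest on few genes. Among 19 tested p53 targets 4 were higher and 1 lower: Trp53inp1, a stress protein gene, was at 501 and 1297 FPKM, Btg2, an antiproliferative gene, at 146 and 313 FPKM, and Perp, a membrane protein gene, at 66.0 and 23.1 FPKM.

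The machinery of TCR signalling itself was also affected. Of its 43 tested genes 10 were higher, against a background of 6.44%, 9 of them GC-robust, and 7 of the 43 had a log2 change below 0; the median was 0.37. Pag1, an adaptor that recruits the inhibitory kinase CSK, was at 26.1 FPKM in WT and 84.7 FPKM in Hdac3KO, a log2 change of 1.70 ± 0.42 (deposited q 0.00134). The adaptor gene Grap2 was at 73.2 and 179 FPKM, the Tec family kinase gene Txk at 42.4 and 100.1 FPKM, and Nfatc2 at 5.56 and 12.4 FPKM. The proximal kinase genes Lck, at 373 and 516 FPKM, and Zap70, at 65.8 and 83.9 FPKM, did not pass (deposited q 0.274 and 0.374).

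Cytokine receptor, JAK, STAT and SOCS genes had 11 higher and 4 lower members among 36 tested (6.44% and 4.32% over all tested genes). Of these calls 8 and 4 were GC-robust. Il2ra, the high-affinity chain of the interleukin 2 receptor, was at 4.41 FPKM in WT and 26.3 FPKM in Hdac3KO, a log2 change of 2.58 ± 0.64 (deposited q 0.00134). Il10ra was at 3.29 and 12.9 FPKM, Il4ra at 44.3 and 90.5 FPKM, and Il21r at 61.9 and 131 FPKM. The shared chain gene Il2rg, which is X-linked, was at 172 and 309 FPKM. The feedback inhibitor gene Socs3 was at 2.34 and 10.53 FPKM. The lower members were Il7r, Il17rb, Socs5 and Il6st. Il17rb, a receptor for interleukin 25, was at 42.2 and 5.61 FPKM, a log2 change of -2.91 ± 0.72, and Socs5 at 4.24 and 0.682 FPKM. Among 21 tested NF-kB targets 4 were higher, each GC-robust: Il2ra, Tnf at 3.11 and 12.5 FPKM, the adaptor gene Traf1 at 8.57 and 30.1 FPKM, and Icam1 at 8.98 and 19.6 FPKM. Nfkbia, the inhibitor that this pathway induces, was at 93.1 and 133 FPKM and did not pass (deposited q 0.348). Among 17 tested chemokine and homing receptors 4 were higher, with the P-selectin ligand gene Selplg at 44.7 and 149 FPKM.

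Genes of cell division were lower in Hdac3KO DP2 cells. Of 60 tested mitosis genes 27 were lower, against a background of 4.32%, 25 of them GC-robust, and 6 of the 60 had a log2 change above 0; the median was -0.88. Mki67, the proliferation antigen Ki-67 (chromosome 7, 135689787 to 135716379), was at 251 FPKM in WT and 98.7 FPKM in Hdac3KO, a log2 change of -1.35 ± 0.33 (deposited q 0.00134). Top2a, the topoisomerase that untangles chromosomes (chromosome 11, 98992946 to 99024189), was at 260.3 and 109.8 FPKM, and Kif11, a spindle motor (chromosome 19, 37376402 to 37421859), at 131 and 48.9 FPKM. The spindle genes Aspm and Nuf2 were at 32.2 and 28.9 FPKM in WT and at 9.53 and 8.74 FPKM in Hdac3KO, the largest fall of the list at -1.76 for Aspm. Ccnb1 and Cdk1, the cyclin and kinase of mitotic entry, were at 47.7 and 15.3 FPKM in WT and at 21.6 and 7.21 FPKM in Hdac3KO.

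Promoters of mitotic genes often carry a CHR element, a short word near the start that the MuvB complexes bind, and CCAAT boxes, which NF-Y binds. Promoter sequences are those of RefSeq on GRCm38.p6, the assembly of mm10, which the table gives for 8484 of the genes kept and for 47 of the 60 mitosis genes. The 150 bases upstream of the annotated start are shown for Top2a (chr11:99024190-99024339, minus strand), Mki67 (chr7:135716380-135716529, minus strand) and Kif11 (chr19:37376232-37376381, plus strand), each written on its own strand. They are shown as the lower mitotic genes of highest level that hold both words, a choice made after their values were seen. Capitals mark TTTGAA or TTCGAA (the reverse of the first reads TTCAAA) and CCAAT (reverse ATTGG).
Top2a: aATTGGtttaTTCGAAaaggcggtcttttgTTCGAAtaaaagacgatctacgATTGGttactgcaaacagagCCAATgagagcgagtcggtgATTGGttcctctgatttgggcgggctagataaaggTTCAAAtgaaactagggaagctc
Mki67: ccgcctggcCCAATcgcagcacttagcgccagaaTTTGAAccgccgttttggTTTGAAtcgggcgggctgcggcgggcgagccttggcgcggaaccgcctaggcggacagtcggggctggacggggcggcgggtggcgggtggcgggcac
Kif11: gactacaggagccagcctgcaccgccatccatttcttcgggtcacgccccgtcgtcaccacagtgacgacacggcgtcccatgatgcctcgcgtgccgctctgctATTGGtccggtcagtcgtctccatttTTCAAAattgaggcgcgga
In the 250 bases upstream, CCAAT on either strand was found in 20 of 25 promoters of the lower mitosis genes, 80%, compared with 74.5% of the 47 mitosis promoters and 37.0% of all 8484. TTTGAA or TTCGAA was found in 8 of the 25, 32%, in 38.3% of the 47 and in 12.4% of all. The words were therefore a feature of the list as a whole. For DNA replication genes, CCAAT was found in 8 of 8 promoters of lower members, in 64.9% of the list's 37 promoters, and TTTGAA or TTCGAA in 1 of the 8. A match is a word in the sequence and no measure of binding.

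DNA replication genes had 9 lower members among 45 tested, each GC-robust, and 1 higher; the median log2 change was -0.39. Pcna, the sliding clamp and the most abundant member, was at 302 FPKM in WT and 183 FPKM in Hdac3KO, a log2 change of -0.72 ± 0.23 (deposited q 0.0222). Rrm2, the regulated subunit of ribonucleotide reductase, was at 83.2 and 32.0 FPKM, and the helicase activator Cdc45 at 16.3 and 6.09 FPKM. Mcm10 and the polymerase gene Pole were at 5.60 and 6.85 FPKM in WT and at 2.28 and 2.75 FPKM in Hdac3KO. The higher member, the origin binding gene Orc1, at 3.98 and 9.25 FPKM, lost its call with the GC trend removed. Of 53 tested replication-dependent histone genes, which lack poly(A) tails and are seen in total RNA, 4 were lower and 1 higher, beside 4.32% and 6.44% over all tested genes, and 11 were lower with the GC trend removed. Hist1h2bf was at 103 and 40.8 FPKM and Hist4h4, the higher one, at 35.0 and 72.0 FPKM; reads of near-identical histone copies could be split between them in counting. Between the WT stages, 50 of 60 mitosis genes and 43 of 45 replication genes were lower in DP2 than in DP1 (background 16.8%), and between the Hdac3KO stages 54 and 32 were (background 4.65%).

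Among the partners of HDAC3, the scaffold gene Ncor1 missed the threshold. Of 28 tested deacetylase and corepressor genes 7 were higher and 3 lower (6.44% and 4.32% over all tested genes). However, 2 of the 7 and each of the 3 were GC-robust. Tbl1xr1, a TBL1-type subunit of the NCoR complex (chromosome 3, 22076651 to 22216594), was at 36.5 FPKM in WT and 95.1 FPKM in Hdac3KO, a log2 change of 1.38 ± 0.34 (deposited q 0.00134). Its X-linked paralogue Tbl1x was at 59.6 and 106 FPKM. The scaffold gene Ncor1, at 113 and 135 FPKM, did not pass (deposited q 0.640), nor did the subunit gene Gps2 at 33.6 and 34.3 FPKM (0.970). The lower members beside Hdac3 were Hdac6, at 7.35 and 3.71 FPKM, and the histone chaperone gene Rbbp7, at 116 and 50.3 FPKM, both X-linked. Of the class I deacetylases, Hdac1 was at 79.5 and 128 FPKM (deposited q 0.0333, not GC-robust) and Hdac2 at 144 and 112 FPKM (deposited q 0.369). Hdac7, abundant in double-positive cells, was at 105 and 224 FPKM, and its call was lost with the GC trend removed (adjusted q 0.0749).

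Among 42 tested thymocyte transcription factors 10 were higher and 6 lower (6.44% and 4.32% over all tested genes), 9 and 6 of them GC-robust. The lower ones included Id2, Ikzf2, Tox and Egr1. Foxj1, which restrains T cell activation, was at 10.4 FPKM in WT and 38.9 FPKM in Hdac3KO, a log2 change of 1.91 ± 0.47 (deposited q 0.00134), Klf13 at 35.0 and 92.3 FPKM, and the receptor gene Notch3 at 1.51 and 4.08 FPKM. Tcf7, the most abundant of the list, was at 666 and 1020.5 FPKM and did not pass (deposited q 0.285).

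Metabolic and biosynthetic lists differed in their number of calls, to be read beside 6.44% higher and 4.32% lower over all tested genes. Of 30 tested cholesterol synthesis genes 3 were higher and 1 lower. Pmvk, phosphomevalonate kinase and the most abundant of them, was at 289 FPKM in WT and 59.1 FPKM in Hdac3KO, a log2 change of -2.29 ± 0.56 (deposited q 0.00134), while Mvd, the enzyme of the next step, was at 1.98 and 9.44 FPKM. Of 16 tested genes of lipid handling under the LXR receptors, 5 were higher, 3 of them GC-robust; the sterol exporter genes Abca1 and Abcg1 were at 11.7 and 24.3 FPKM in WT and at 23.2 and 73.7 FPKM in Hdac3KO. Sialyl- and glycosyltransferase genes had 3 higher and 3 lower members among 18 tested, each GC-robust: St3gal2 was at 10.9 and 4.08 FPKM and St3gal1 at 9.08 and 3.67 FPKM, whereas St3gal6 was at 5.70 and 17.6 FPKM and St6gal1 at 42.3 and 83.3 FPKM. The purine list had 1 call each way among 11, with the nucleoside transporter gene Slc29a1 lower at 27.6 and 10.6 FPKM and the adenosine deaminase gene Ada higher at 28.3 and 54.2 FPKM, the latter not GC-robust.

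Interferon-stimulated genes had 4 higher and 3 lower members among 36 tested (6.44% and 4.32% over all tested genes), 1 and 3 of them GC-robust. Samhd1, a nucleotide-degrading restriction factor, was at 4.54 FPKM in WT and 0.450 FPKM in Hdac3KO, a log2 change of -3.33 ± 0.82 (deposited q 0.00134), Ifit1 at 8.09 and 1.98 FPKM and Ifit2 at 30.1 and 12.03 FPKM. Glycolysis had 3 higher and 1 lower call among 26, with 1 of each GC-robust: Ldhb was at 257 and 477 FPKM and Egln3 at 16.9 and 9.98 FPKM. Oxidative phosphorylation had 1 call among 63, Ndufb7, higher and not GC-robust, and ribosome biogenesis 1 higher and 2 lower among 35. Of 80 cytosolic ribosomal protein genes 6 were higher and 1 lower, 1 each GC-robust: Rpl37 was at 106 and 222 FPKM and Rpsa at 715 and 415 FPKM. Pseudogene copies of this family could take part of its reads. Housekeeping genes gave 1 call among 24, Polr2a, higher and not GC-robust.

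**Figure D4:**
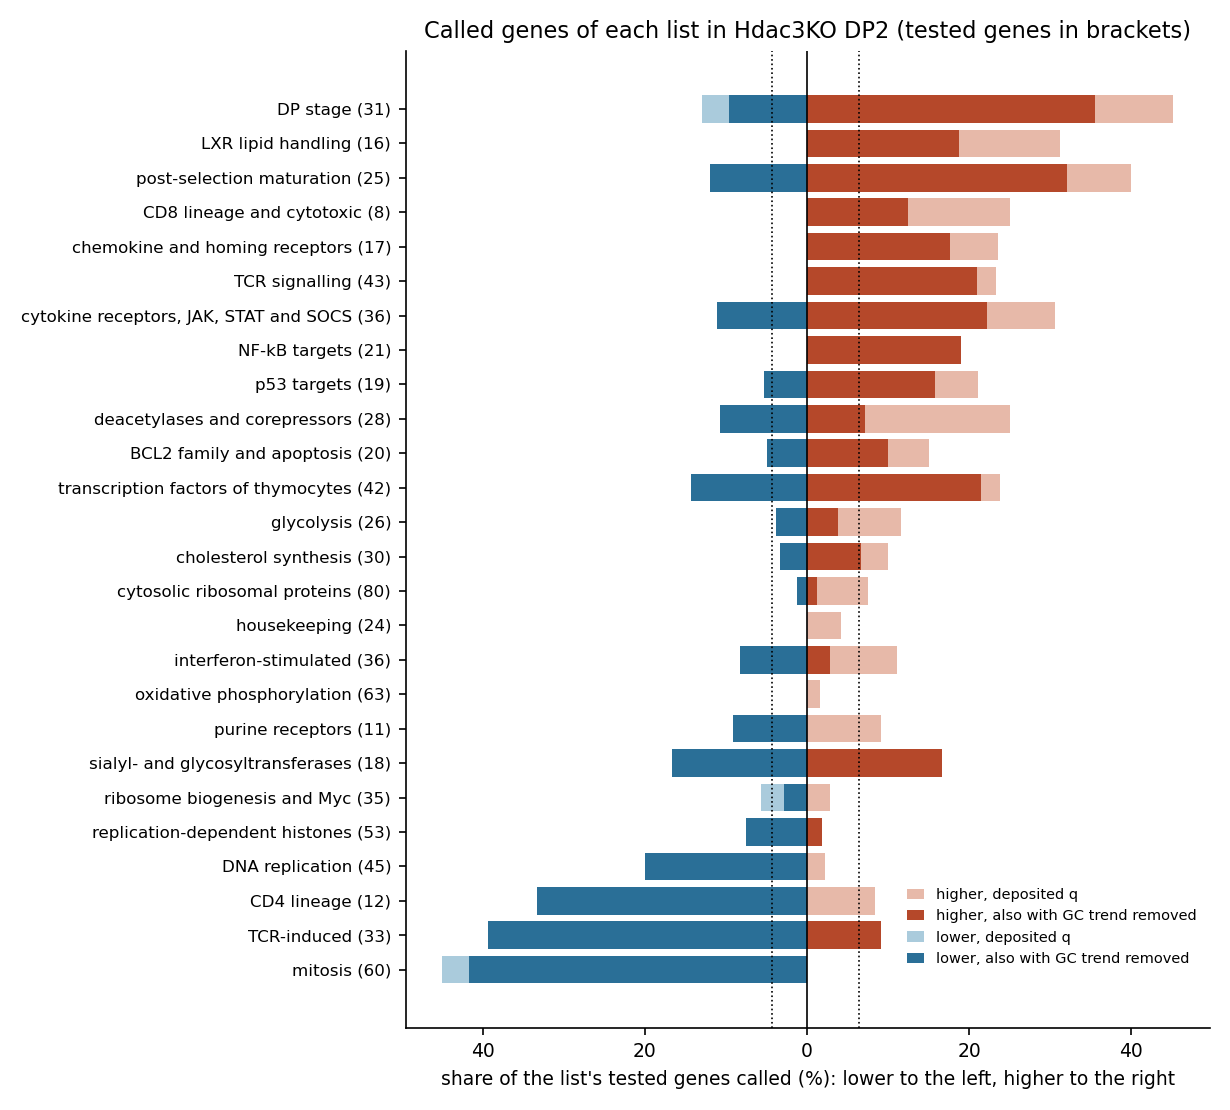
Share of each list's tested genes called lower (left, blue) or higher (right, red) in Hdac3KO DP2, in percent; pale bars are calls at the deposited q of 0.05 or less, dark bars the part that was also called with the GC trend removed, and dotted lines the shares over all tested genes (4.32% lower, 6.44% higher). Mitosis and TCR-induced genes lie at the lower end and double-positive stage genes at the upper end; the red bar of deacetylases and corepressors is mostly pale.

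Markers of other cells were low in both groups. All 11 γδ T and NK cell genes matched were under 1 FPKM in both, as were 8 of 13 B cell, 15 of 26 myeloid and dendritic, 10 of 13 erythroid and 14 of 18 stromal genes. Summed marker levels were 15.2 FPKM in WT and 17.0 FPKM in Hdac3KO for B cells, 35.3 and 34.3 FPKM for myeloid and dendritic cells (33.7 and 18.6 FPKM without Itgam), 7.58 and 6.24 FPKM for erythroid cells and 64.0 and 64.2 FPKM for stroma, of which Pecam1 held 48.4 and 45.4 FPKM. Of the globin genes, Hba-a1 and Hba-a2 were listed at 0 in both, and Hbb-b2 was at 1.62 and 0.139 FPKM. Foxp3, the factor of regulatory T cells, was at 0.693 and 0.671 FPKM. The higher Itgam stood beside Lyz2 at 2.80 and 2.50 FPKM and Itgax at 0.183 and 0.270 FPKM, while the MHC class II gene H2-Ab1 was lower, at 5.41 and 1.15 FPKM. Cd74, the invariant chain of MHC class II, was at 6.68 and 2.15 FPKM, and the complement gene C1qc at 1.43 and 0.175 FPKM. Of the 25 myeloid and dendritic genes beside Itgam, 17 had the lower value in Hdac3KO. Markers of single-positive T cells summed to 170.1 and 145 FPKM. Of 9 tested, 2 were higher (Ccr7, Itgb7) and 2 lower (Il7r, Cd40lg), beside 6.44% and 4.32% over all tested genes. Regulatory T cell markers summed to 131 and 71.2 FPKM, of which Ikzf2 held 94.8 and 24.0 FPKM, and early double-negative markers to 257 and 87.5 FPKM, of which Hhex held 221 and 21.3 FPKM. Each sum was dominated by that gene. Il2ra, a marker in both lists, went the other way, at 4.41 and 26.3 FPKM. Of 5 tested early double-negative genes 3 had a log2 change above 0 and 2 below. Of 6 tested regulatory T cell genes 1 lay above 0 and 5 below. The part of rarer cells in the differences above was not tested.

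The same genotype comparison in DP1 cells uses other libraries, in which sex-linked RNA was split in the same way: Ddx3y was at 57.3 FPKM in WT DP1 and 0.189 FPKM in Hdac3KO DP1, and Xist at 0.0945 and 207.7 FPKM. Sex and genotype cannot be told apart in either comparison. Of the 1148 genes called in DP2, 461 were called in the same direction in DP1, 281 higher and 180 lower. This is 40.2% of the DP2 calls and 18.6% of the 2478 DP1 calls, where 10.7% of tested genes were higher and 12.9% lower; 9 were called in opposite directions. In DP1, 7 of 29 tested TCR-induced genes were lower and 4 higher, 7 of 31 double-positive stage genes higher and 5 lower, and 27 of 60 mitosis genes lower. Bcl6 was at 40.4 FPKM in WT DP1 and 110.9 FPKM in Hdac3KO DP1. The trend with GC content ran the other way in DP1, with a median log2 change of 0.15 in the lowest and -0.27 in the highest of 8 bins. DP1 also had a trend with transcript length: the median log2 change was -0.64 in the shortest of 8 bins (5 genes higher, 263 lower) and 0.38 in the longest (209 higher, 15 lower), whereas both of these bins stood at 0.12 in DP2. Among the largest changes, Spsb1 rose by a log2 of 3.54 ± 0.87 in DP2 and 3.28 ± 0.81 in DP1, Gimap7 by 2.71 ± 0.67 and 2.90 ± 0.72, and Il2ra by 2.58 ± 0.64 and 2.49 ± 0.61. The difference between stages for Hdac3 was 0.76 ± 0.51 (adjusted q 0.420), with a log2 change of -1.70 in DP1.

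The difference of the 2 changes (DP2 minus DP1, normal test, Benjamini-Hochberg adjustment over 10144 genes) passed at 0.05 for 211 genes, 2.08%, of which 91 were more positive and 120 more negative in DP2. With the GC trend removed from both, 82 passed, 44 of them among the 211 and in the same direction. With the length trend removed from both, an alternative added after seeing the data, 103 passed, 70 of them shared, and with both trends removed 51, of which 26 were shared. The same difference taken from the stage tables passed for 312 genes, 162 of them shared. With the SE made 1.5 times larger 0 passed. Then 413 of the 10144 had an unadjusted p of 0.05 or less, against 1890 with the SE as worked back. The 413 are a smaller share than the 0.05 expected if no gene differed. Because the deposited p stops at 5e-05, hardly any gene could pass under this setting, whatever its difference. The 0 therefore says little, though the differences below rest on the size of the SE. Bcl2 differed: its log2 change was -1.76 ± 0.43 in DP2 and 0.84 ± 0.40 in DP1, a difference of -2.60 ± 0.59 (adjusted q 0.00894). In DP1 its level was 2.05 FPKM in WT and 3.68 FPKM in Hdac3KO. The difference kept its call with the GC trend removed (adjusted q 0.0120), with the length trend removed (0.0135), with both removed (0.0278) and in the stage tables (0.0399). Mki67, St3gal2 and Lef1, lower in Hdac3KO in DP2, had log2 changes of 0.25, 0.28 and 0.16 in DP1, with differences of -1.60 ± 0.45, -1.71 ± 0.47 and -1.20 ± 0.35 (adjusted q 0.0367, 0.0316 and 0.0429). These calls were lost in the stage tables (adjusted q 0.174, 0.111 and 0.0688), and that of Mki67 also with the length trend removed (0.168). Among cytosolic ribosomal protein genes 27 of 80 had a more positive change in DP2. This number was 3 with the GC trend removed from both and 0 with the length trend removed from both (normal test, Benjamini-Hochberg adjustment). In the latter setting 14 of the 80 had an unadjusted p of 0.05 or less, beside 1227 of the up to 10144 genes compared. For Nr4a1, Egr1, Itm2a, Rag2 and Ccnb1 the difference did not pass (adjusted q 0.905, 0.779, 0.742, 0.2996 and 0.981).

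**Figure D5:**
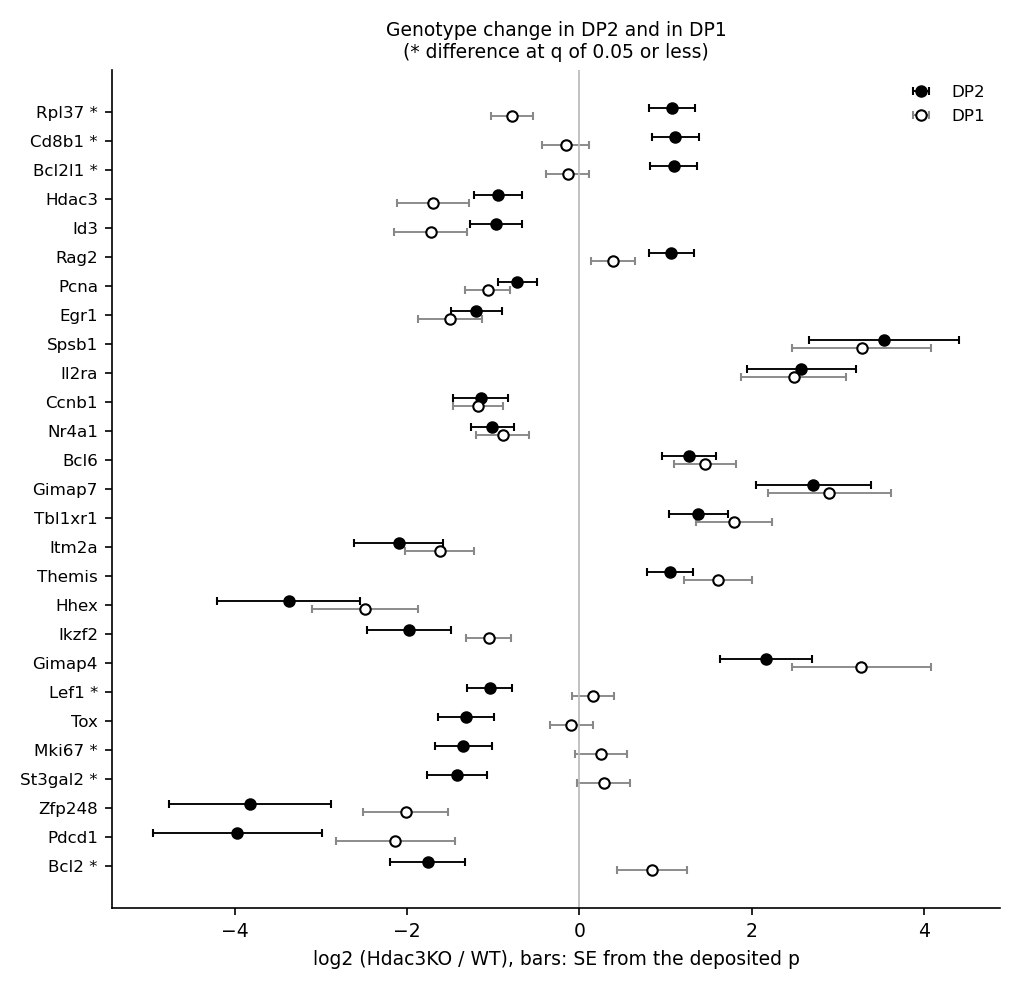
Log2 change (Hdac3KO over WT) in DP2 (filled circles) and DP1 (open circles) with SE worked back from the deposited p, for 27 genes ordered by the difference; an asterisk marks a difference with an adjusted q of 0.05 or less. Bcl2 lies at -1.76 in DP2 and 0.84 in DP1, and the circles of Spsb1, Il2ra, Ccnb1 and Nr4a1 lie within 1 SE of each other.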

How the data were processed

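Trizol RNA of flow-sorted thymocytes was pooled and, after ribosomal RNA was removed, used for stranded libraries with a Clontech SMARTer kit, per the labels' protocols. Trimmomatic 0.32, TopHat2 2.0.11, Cuffdiff 2.1.1 and mm10 were used, per the submitters' processing notes; settings and annotation are not given in the sources used here. The FPKM values were deposited as 1 value per gene and group, and each of the 4 tables was normalized on its own. The authors' test statistic is a score deposited with each comparison. The authors' p-values and q-values were deposited beside it, and the q-values were checked to equal a Benjamini-Hochberg adjustment of the tested genes within 5.22e-07. No other per-sample values were used.

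Log2 changes were computed from the deposited FPKM with no pseudocount, and the call was the deposited q at 0.05. Of 12210 genes with at least 1 FPKM in either group, 1536 carried no test; 75 tested genes were at 0 in 1 group and have no log2 change. Each SE was worked back from the deposited p, as the absolute log2 change over the z value that gives this p. The GC trend was a lowess curve of fraction 0.3, fitted to genes that reached 10 FPKM in each group. It used the GC content of the longest GENCODE M21 transcript, known for 98.7% of tested genes. The curve was subtracted from the log2 change of these genes and a normal p recomputed with the same SE. Genes at 0 in 1 group kept their deposited p, and genes of unknown GC content were left out. The p-values were then adjusted over all tested genes of known GC content. The GC correction and the DP2 minus DP1 test were run on simulated log2 changes with the same known SE for all genes. This did not cover the SE worked back from p, the limit of the deposited p, or genes at 0 in 1 group. Python 3.11.15, numpy 2.4.6, pandas 2.3.3, scipy 1.17.1, statsmodels 0.14.6 and matplotlib 3.10.9 were used. Alternatives were other thresholds, minimum levels and pseudocounts, centring, a length trend, the normal p of the statistic, a larger SE and the stage tables; leaving out X- and Y-linked genes, and removing the length trend from the DP2 minus DP1 differences, were added after seeing the data.

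Named genes were the 12 largest GC-corrected changes in each direction among calls held with the GC trend removed, with a higher value of 5 FPKM or more, no value of 0, and without joined entries, small RNAs, unnamed loci and symbols turned into dates (25 entries); up to 4 called members per list in each direction, the member of highest level, and a fixed set of genes of interest. Members of the TCR-induced and double-positive lists and the markers outside this rule, and partners of named genes, were chosen after their values were seen. The 35 lists hold 985 symbols, of which 973 were in the tables. The members and lists were chosen with earlier results of these data known. A few genes are not reported here.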

Additional observations from a re-analysis of the deposited data

Results flagged for a closer look

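For 16 named genes the genotype change differed between DP2 and DP1 cells at an adjusted q of 0.05 or less (normal test of the difference of the log2 changes, Benjamini-Hochberg adjustment over 10144 genes). Differences are given as DP2 minus DP1 with their SE.

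Of the 16, 8 had the more negative change in DP2. Cd53, a tetraspanin gene, had a difference of -3.69 ± 0.83 (adjusted q 0.00894), with a log2 change of -0.49 in DP2 and 3.20 in DP1. Bcl2 had a difference of -2.60 ± 0.59 and Tox2, a relative of Tox, one of -2.29 ± 0.69 (adjusted q 0.00894 and 0.0484). Lef1 had a difference of -1.20 ± 0.35 and the sialyltransferase gene St3gal2 one of -1.71 ± 0.47. The mitotic genes Aspm, Sgol2 and Mki67 had differences of -1.65 ± 0.50, -1.65 ± 0.48 and -1.60 ± 0.45.

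In the other 8 the change was the more positive one in DP2. Bcl2l1 had a difference of 1.23 ± 0.37 and the coreceptor gene Cd8b1 one of 1.28 ± 0.39. Arl5c, a small GTPase gene, had a difference of 1.26 ± 0.34 and the ATP synthase gene Atp5h one of 1.19 ± 0.35. The ribosomal protein genes Rps14, Rps28, Rplp1 and Rpl37 had differences of 1.41 ± 0.35, 1.48 ± 0.39, 1.79 ± 0.36 and 1.86 ± 0.36. With the GC trend removed from both tables, Cd53, Bcl2, Tox2, St3gal2, Mki67, Lef1 and Rpl37 were under 0.05 (adjusted q 0.0180, 0.0120, 0.0179, 0.00579, 0.0292, 0.0409 and 0.0376). The other genes of the 16 did not, with adjusted q from 0.0702 for Rplp1 to 0.485 for Bcl2l1. In the stage tables the difference of Cd53, Tox2, St3gal2, Aspm, Sgol2, Mki67 and Lef1 did not pass (adjusted q 0.104, 0.101, 0.111, 0.124, 0.127, 0.174 and 0.0688), and that of the other genes did. With the length trend removed from both tables, an alternative added after seeing the data, Cd53, Bcl2, Tox2, St3gal2 and Lef1 passed (adjusted q 0.000913, 0.0135, 0.0262, 0.0234 and 0.0188). Bcl2 was the one gene of the 16 that passed in each of these settings.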

How the results depend on the processing

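Of 687 genes higher in Hdac3KO DP2, 376 remained at a deposited q of 0.01 and 351 at a log2 change of at least 1. The count of higher genes was 395 with the GC trend removed, 397 with a wider GC curve (fraction 0.6), 359 with GC and length trends removed and 253 with the normal p of the deposited statistic. Of 461 lower genes, 242 passed at a q of 0.01. The 211 differences between DP2 and DP1 became 82 with the GC trend removed, 103 with the length trend removed from both tables, 51 with both trends removed, the latter settings added after seeing the data, and 0 with the SE multiplied by 1.5, where 413 had an unadjusted p of 0.05 or less. The deposited p stops at 5e-05, so hardly any gene could pass with the larger SE. The 413 are a smaller share of the 10144 genes compared than the 0.05 expected if no gene differed. The causes were not tested. The stage tables gave 312, of which 162 were among the 211. The other alternatives moved the counts of higher and lower genes by less than 1.5 times. Removing the GC trend ended the call of 29 named genes and made 4 pass; centring ended 17 and made 3 pass, and removing the length trend ended 16 and made 3 pass. No call of a named gene turned direction in these settings. Without X- and Y-linked genes the TCR-induced list had 12 lower genes and the mitosis list 26. No paired analysis was possible because each table holds 1 value per gene and group, and for the same reason no replicate could be left out. The depth of the libraries is unknown.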
